A study of Mus musculus with 4 samples.

Results

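The genes described here were 38 genes of the macrophage and leukocyte lineage, chosen by name from a list of lineage genes drawn up with earlier results of these data known, among the 24346 gene rows of the expression table. All 38 names were found. RNA-seq had been performed on mBMSCs, adherent stromal cells grown from the bone marrow of 3-month-old C57BL/6 mice (C57BL/6J in the methods of the study). These cells had been transfected with a scramble siRNA (siScr, n = 2) or with siRNA against Zbp1 (siZBP1, n = 2), and RNA was collected 72 h later. Marrow cells had been plated in medium with 15% serum, nonadherent cells had been removed by 3 washes after 3 days, and colonies had been collected after 2 weeks. No sorting of the sequenced cells is described in the sources used here. Whether replicates came from separate animals or cultures is also not stated, so p-values measure the spread between these samples only. Whether siZBP1-1, siZBP1-2 or both were used for the sequenced samples is not stated.

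Macrophages are phagocytes of the myeloid lineage that depend on the receptor Csf1r for survival and are specified by the transcription factor PU.1, encoded by Spi1. They take up particles through scavenger, lectin and Fc receptors. Several of these receptors signal through small adaptors with tyrosine motifs (ITAMs), which recruit the kinase Syk and drive actin remodelling, an oxidative burst by the NADPH oxidase, and digestion in the lysosome. Macrophages of the marrow adhere to plastic and are known to persist in stromal cultures, and Lyz2 is widely used as a marker of the lineage.

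Values are FPKM, fragments scaled to transcript length and to the number of mapped reads, so levels can be compared between genes. Numbers of reads are not given, and the spacing of low values placed the depth roughly between 10 and 18 M fragments per sample. Zbp1 itself was at 86.0 and 62.0 FPKM in the siScr samples and at 11.5 and 11.6 FPKM in the siZBP1 samples, 0.156 of the control mean.

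Macrophage genes were abundant in these cultures in both groups. Of the 38 members, 36 had a mean of at least 1 FPKM and entered the test, and their means ran from 21.7 FPKM for Was to 4433 FPKM for Lyz2, with a median of 138 FPKM. The scavenger receptor gene Marco was at 0 in both first replicates and at 0.018 and 0.042 FPKM in the second replicates of siScr and siZBP1. The kinase gene Fgr was at 0.648 and 0.369 FPKM in siScr cells and at 1.09 and 1.06 FPKM in siZBP1 cells. Neither was tested. Together the members made up 2.16% and 2.46% of all FPKM in the siScr samples and 3.27% and 3.15% in the siZBP1 samples. Lyz2 alone supplied between 26.5% and 37.2% of the members' sum. Without Lyz1 and Lyz2, the share of all FPKM was 1.503% and 1.58% in siScr cells against 1.86% and 1.85% in siZBP1 cells, so the order of the groups did not rest on the lysozyme genes.

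Most members were higher in ZBP1-depleted mBMSCs, but by unequal amounts, and a few were lower. At an adjusted p under 0.05 limma called 22 of the 36 members tested higher and 2 of them lower, beside 13.5% of all 11959 genes tested called higher and 14.8% called lower. Both siZBP1 values lay above both siScr values for 30 members, a pattern shown by 34.7% of all genes tested. Both lay below both siScr values for 4 members (Cybb, Rac2, Lcp1 and Mpeg1), a pattern of 33.7% of all genes. For Mpeg1 the margin was small, with 844.08 FPKM in siZBP1 replicate 2 against 844.1 FPKM in siScr replicate 1. The groups overlapped for Fcgr1 and Coro1a. The median log2 fold change of FPKM + 1 was 0.29 over the members and 0.00 over all genes tested. The 5 members Fcgr2b, Lyz1, Lyz2, Clec7a and Syk were called higher with a ratio of means over 1.5, beside 3.09% of all genes tested. A change in the mix of cells and more RNA of these genes per macrophage cannot be told apart in bulk RNA. FPKM is scaled to the number of mapped reads, so it does not give the number of macrophages. With 1 siZBP1 sample left, the spread comes from the siScr pair alone, and nearly all calls among all genes tested were lost. Every call of a member likewise needed both siZBP1 samples. When either was left out, limma called 0 of 36 members at an adjusted p under 0.05 in either direction, with lowest adjusted p-values among the members of 0.0832 and 0.0689. Zbp1 itself did not pass in these fits either (limma adjusted p = 0.0748 and 0.0654). In both of them the unadjusted p was under 0.05 for 20 higher and 2 lower members, beside 12.3% and 14.2% of all genes tested higher and 14.5% and 15.5% lower in the same fits. With siScr replicate 1 left out 15 members were called higher (4.33% of all genes), the calls of Csf1r, Cd68, Cd84, Sirpa, Fcgr3, Btk and Lyz1 being lost, and with siScr replicate 2 left out 20 were called higher (8.52% of all genes), those of Sirpa and Btk being lost.

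**Figure D1:**
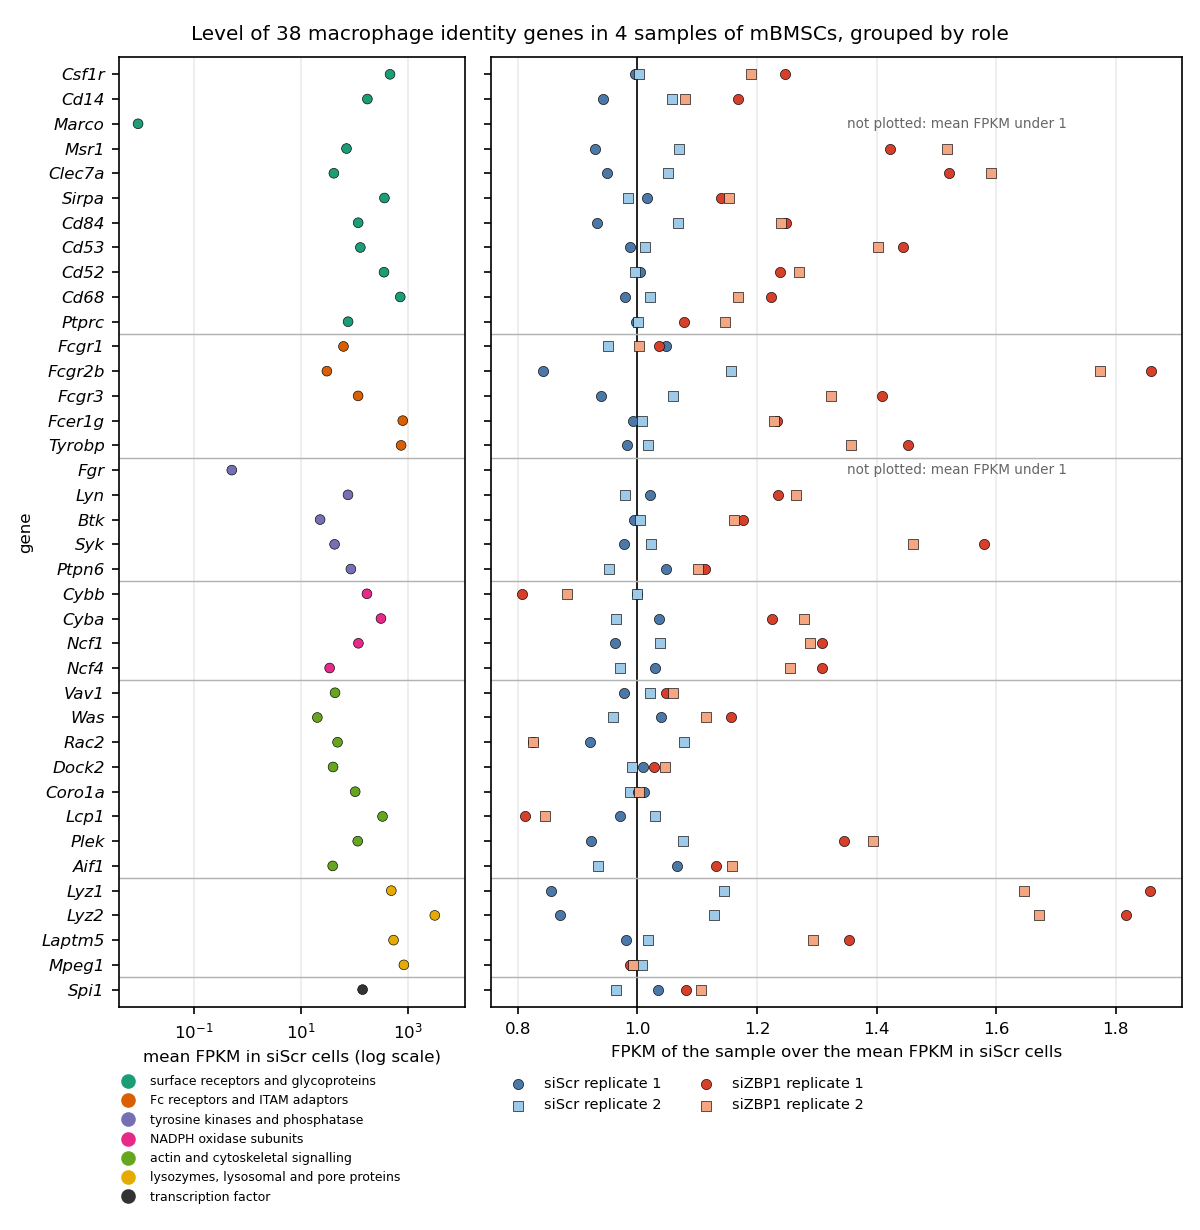
Level of the 38 members by role. The left panel gives the mean FPKM in siScr cells on a log scale, and the right panel the FPKM of each of the 4 samples over that mean. For Fcgr2b, Lyz1 and Lyz2 the siZBP1 samples lie far to the right and the siScr samples apart from each other, whereas Cybb, Rac2 and Lcp1 lie to the left of 1.

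Among surface receptors and glycoproteins, 8 of 10 tested genes were called higher and 0 lower, with a median log2 fold change of 0.30. The β-glucan lectin gene Clec7a was at 39.4 and 43.7 FPKM in siScr cells and at 63.2 and 66.1 FPKM in siZBP1 cells. The gap between the groups was larger than either pair's own difference, and the ratio of means was 1.56 (log2 fold change 0.63 ± 0.06 SE, limma adjusted p = 0.00666). The scavenger receptor gene Msr1 was at 66.6 and 76.7 FPKM in siScr cells and rose to 102 and 109 FPKM (0.55 ± 0.08 SE, limma adjusted p = 0.0134). The tetraspanin gene Cd53, at 129 and 132 FPKM in siScr cells and 188 and 183 FPKM in siZBP1 cells, had the lowest adjusted p of all members (0.51 ± 0.04 SE, limma adjusted p = 0.00426).

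Csf1r, the receptor for the macrophage growth factor CSF1, was at 467 and 470 FPKM in siScr cells and at 584 and 558 FPKM in siZBP1 cells, a rise of 0.28 ± 0.04 SE (limma adjusted p = 0.0147). Cd68, a glycoprotein of the lysosomal membrane, stood at 712 and 743 FPKM and at 890 and 851 FPKM, 1.20-fold higher (0.26 ± 0.05 SE, limma adjusted p = 0.0247). Its call was lost without the variance trend (limma adjusted p = 0.0535) and without the filter on low values (limma adjusted p = 0.0548). The ratio of Cd68 to Csf1r was 1.53 and 1.58 in siScr cells and 1.52 and 1.52 in siZBP1 cells, so this pair of markers moved together. The leukocyte phosphatase gene Ptprc, which encodes CD45, was at 76.6 and 76.8 FPKM in siScr cells and at 82.7 and 88.0 FPKM in siZBP1 cells. Its groups did not overlap, but it did not pass the test (0.15 ± 0.05 SE, limma adjusted p = 0.0744). The remaining called receptors were Sirpa, the inhibitory receptor for CD47, and Cd84 and Cd52, with log2 fold changes between 0.20 and 0.33. Without the variance trend the calls of Sirpa and Cd84 were lost, as was that of Sirpa with the replicate block and that of Cd84 without the filter and with quantile normalization. Cd14, the co-receptor for lipopolysaccharide, was not called (0.17 ± 0.07 SE, limma adjusted p = 0.162).

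The Fc receptor genes did not move alike. Fcgr2b, the inhibitory receptor for immune complexes, was at 25.9 and 35.6 FPKM in siScr cells and at 57.1 and 54.5 FPKM in siZBP1 cells. It was 1.82-fold higher (0.86 ± 0.15 SE, limma adjusted p = 0.0205), the largest log2 fold change among the members tested. The siScr samples differed from each other by more than the siZBP1 samples did, and the log2 fold change was 0.64 with siScr replicate 1 left out and 1.08 with siScr replicate 2 left out. The activating receptor gene Fcgr3 was at 111 and 125 FPKM in siScr cells and at 167 and 156 FPKM in siZBP1 cells (0.45 ± 0.07 SE, limma adjusted p = 0.0168). Fcgr1, the high-affinity receptor for IgG, was at 65.9 and 59.8 FPKM in siScr cells and at 65.1 and 63.0 FPKM in siZBP1 cells. Its groups overlapped, and the change was 0.03 ± 0.06 SE (limma adjusted p = 0.764). Of 50-base windows of annotated transcripts, 6.72% of those of Fcgr2b also occurred in other genes, mainly Fcgr3, and 10.2% of those of Fcgr3 occurred in Fcgr2b, so the split of reads between these 2 genes is uncertain.

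The genes of the ITAM adaptors were also called higher. Tyrobp, which pairs with Trem and lectin receptors, was at 741 and 768 FPKM in siScr cells and at 1097 and 1025 FPKM in siZBP1 cells (0.49 ± 0.05 SE, limma adjusted p = 0.00779). Fcer1g, the signalling chain of the activating Fc receptors, was at 805 and 817 FPKM and at 1001 and 997 FPKM (0.30 ± 0.04 SE, limma adjusted p = 0.0114). The samples of each group lay close together for both adaptors and the groups were separate.

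Of the tyrosine kinases, Syk, which docks on phosphorylated ITAMs, was at 41.9 and 43.8 FPKM in siScr cells and at 67.7 and 62.6 FPKM in siZBP1 cells. This was a ratio of means of 1.52 (0.59 ± 0.06 SE, limma adjusted p = 0.00585). Lyn, the Src-family kinase that phosphorylates ITAMs, rose less (0.32 ± 0.04 SE, limma adjusted p = 0.0109), as did Btk (0.22 ± 0.04 SE, limma adjusted p = 0.0291), whose call was lost without the variance trend and with the replicate block. The phosphatase gene Ptpn6, which encodes the inhibitory enzyme SHP-1, was not called (0.15 ± 0.06 SE, limma adjusted p = 0.130). Of the windows of Lyn, 15.7% also occurred in the gene model Gm11787, so reads of Lyn may have been shared with it.

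The NADPH oxidase subunits went in opposite directions. Cyba, Ncf1 and Ncf4 were called higher, with log2 fold changes of 0.32, 0.38 and 0.35 and standard errors of 0.05 each. Cybb, the catalytic membrane subunit and partner of Cyba, was at 173 and 173 FPKM in siScr cells and at 140 and 153 FPKM in siZBP1 cells. It fell by 0.24 on the log2 scale (0.06 SE, limma adjusted p = 0.0368). Both of its siZBP1 values lay below both siScr values, whereas those of Cyba were above, at 388 and 406 FPKM against 328 and 306 FPKM. The direction of Cybb was kept in all alternatives, but the call was lost with median centring (limma adjusted p = 0.0547), with quantile normalization (limma adjusted p = 0.0566), without the variance trend (limma adjusted p = 0.0761), without the filter (limma adjusted p = 0.0530) and when any 1 sample was left out.

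The genes of actin and cytoskeletal signalling, which carry out cell movement and engulfment, changed least as a group. Of 8 genes tested, 1 was called higher and 1 lower, and the median log2 fold change was 0.06. Plek, a substrate of protein kinase C in haematopoietic cells, was the gene called higher (0.45 ± 0.08 SE, limma adjusted p = 0.0214). Lcp1, the actin-bundling protein L-plastin, was at 329 and 349 FPKM in siScr cells and at 275 and 287 FPKM in siZBP1 cells, a drop of every siZBP1 value below every siScr value. It fell by 0.27 on the log2 scale (0.05 SE, limma adjusted p = 0.0218), and the call was lost with quantile normalization (limma adjusted p = 0.0645), without the variance trend (limma adjusted p = 0.0531) and when any 1 sample was left out. Of the windows of Lcp1, 6.24% occurred in the gene models Gm6201 and Gm7823.

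Rac2, which acts in the migration and oxidative burst of leukocytes, was at 44.9 and 52.5 FPKM in siScr cells and at 40.2 and 40.2 FPKM in siZBP1 cells. The change was -0.27 ± 0.08 SE and did not pass the test (limma adjusted p = 0.0781), although it did without siScr replicate 1 (-0.38, limma adjusted p = 0.0387). With siScr replicate 2 left out the change was -0.15 (limma adjusted p = 0.0894), and with either siZBP1 sample left out it was -0.27 (limma adjusted p = 0.279 and 0.262). The genes Coro1a, Dock2 and Vav1 were near the level of the controls. Coro1a, an actin regulator of leukocytes, was at 105 and 103 FPKM in siScr cells and at 104 and 104 FPKM in siZBP1 cells. Dock2, needed for leukocyte migration, was at 40.5 and 39.7 FPKM and at 41.2 and 42.0 FPKM. Vav1, a signalling protein of blood cells, was at 42.7 and 44.6 FPKM and at 45.8 and 46.3 FPKM. Their log2 fold changes were 0.00 ± 0.04, 0.05 ± 0.04 and 0.07 ± 0.04 SE. Was, the actin nucleation regulator mutated in Wiskott-Aldrich syndrome, and Aif1, known as IBA1, were at 0.18 ± 0.06 and 0.19 ± 0.07 SE. In each of them both siZBP1 values lay above both siScr values, but neither was called (limma adjusted p = 0.0976 and 0.120).

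Of the digestive and pore-forming proteins, the lysozyme genes rose most. Lyz2, the lysozyme of macrophages, was at 2814 and 3647 FPKM in siScr cells and at 5871 and 5402 FPKM in siZBP1 cells, a ratio of means of 1.74 (0.81 ± 0.14 SE, limma adjusted p = 0.0191). Lyz1, the lysozyme best known from Paneth cells of the gut, was at 423 and 567 FPKM and at 919 and 815 FPKM, a ratio of 1.75 (0.82 ± 0.15 SE, limma adjusted p = 0.0235). In both genes the siScr samples were apart from each other, so the size of the rise depended on the control: with siScr replicate 1 left out the log2 fold change was 0.63 for Lyz2 and 0.61 for Lyz1, and with siScr replicate 2 left out it was 1.00 and 1.03. The call of Lyz1 was lost without siScr replicate 1 (limma adjusted p = 0.0560), and that of Lyz2 after quantile normalization, where the change was 0.62 (limma adjusted p = 0.0859).

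The lysozyme genes lie close to each other on chromosome 10, Lyz1 at chr10:117287797-117292868 and Lyz2 at chr10:117277331-117282321, both on the minus strand of GRCm38. They may not be independent observations, because 16.1% of the 50-base windows of Lyz1 and 15.4% of those of Lyz2 occurred in the other gene. How reads were split between them was not tested. Lyz2 stood between 6.39 and 6.65 times the FPKM of Lyz1 in all 4 samples. The 100 bases before the RefSeq start of each gene (GRCm38.p6, minus strand) are shown because these genes rose by nearly the same amount. They were identical at 92 positions, and capitals mark the 8 that differ. The Lyz1 stretch is chr10:117292869-117292968 and the Lyz2 stretch is chr10:117282273-117282372. The gene coordinates above are from GENCODE M21, and part of the Lyz2 stretch lies within them. By that annotation the Lyz2 stretch is not all upstream of the gene.
Lyz1: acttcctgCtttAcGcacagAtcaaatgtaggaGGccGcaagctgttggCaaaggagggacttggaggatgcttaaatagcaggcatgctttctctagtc
Lyz2: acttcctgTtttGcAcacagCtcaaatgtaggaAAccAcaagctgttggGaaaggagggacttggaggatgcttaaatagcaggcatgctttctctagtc

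Laptm5, a lysosomal membrane protein of blood cells, rose from 535 and 555 FPKM to 738 and 705 FPKM (0.40 ± 0.05 SE, limma adjusted p = 0.00883). Mpeg1, the pore-forming perforin-2 of macrophages, was as abundant as Cd68 but was at 844 and 857 FPKM in siScr cells and at 841 and 844 FPKM in siZBP1 cells. All 4 values lay within a narrow range, and the change was -0.01 ± 0.04 SE (limma adjusted p = 0.831). Its sign turned with median centring (0.02) and with quantile normalization (0.14). The only transcription factor among the members, Spi1, was at 148 and 138 FPKM in siScr cells and at 155 and 159 FPKM in siZBP1 cells. The siZBP1 values were the higher ones, but the change of 0.13 ± 0.05 SE did not pass the test (limma adjusted p = 0.121).

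**Figure D2:**
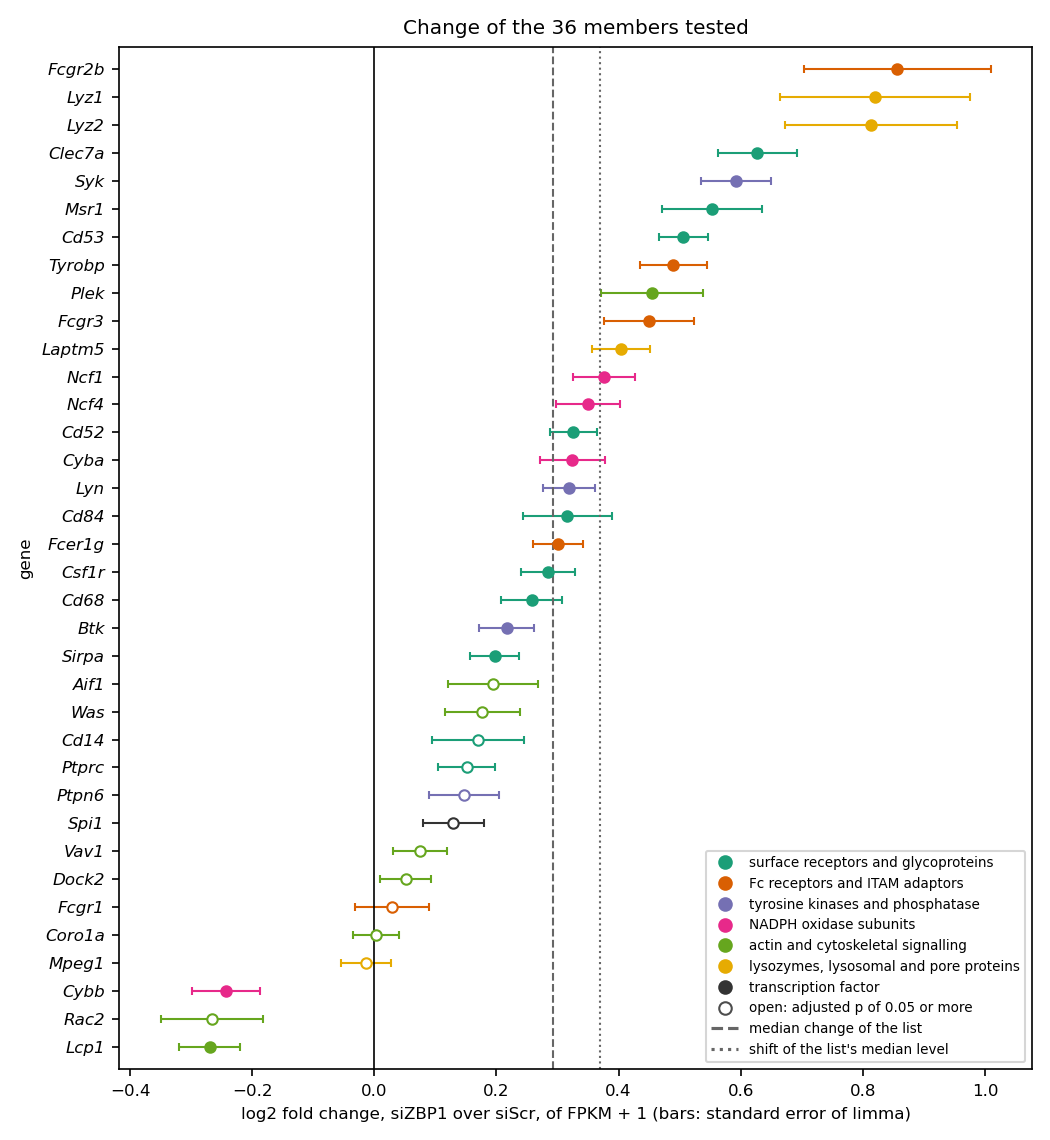
Log2 fold change of FPKM + 1 of the 36 members tested, siZBP1 over siScr, with the standard error of limma as bars and filled points for an adjusted p under 0.05. The dashed line is the members' median change of 0.29 and the dotted line the shift of their median level of 0.37. Points run from -0.27 for Lcp1 to 0.86 for Fcgr2b, and most bars do not reach the lines.

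The next question was how the members' changes compare with one shift common to all of them. The log2 fold changes ran from -0.27 to 0.86 with an SD of 0.28, while the median standard error of a single member was 0.05. The same spread computed between replicates of a group was smaller, with an SD over members of 0.15 for siScr replicate 2 against replicate 1 and 0.07 for the siZBP1 replicates. Of the 36 members, 22 lay more than 2 standard errors from the members' median change, 10 above it and 12 below it, beside 4.93% of all genes tested above and 66.7% below the same value. The change and the level were only loosely related, with r = 0.219 across the 36 members between log2 fold change and log2 mean FPKM. Genes of about the same abundance took different values, as for Mpeg1 with -0.01, Cd68 with 0.26 and Tyrobp with 0.49.

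The samples can be joined in pairs that have no sample in common. In the change of siZBP1 replicate 1 over siScr replicate 1 and that of siZBP1 replicate 2 over siScr replicate 2, 34 of 36 members had the same sign and 28 of 36 lay on the same side of the members' median. Pearson's r across the 36 members was 0.858 for these pairs and 0.891 for the crossed pairs. This is a description across genes, which are not independent of each other, of samples that passed through the same experiment. Lyz1, Lyz2 and Fcgr2b moved by 1.12, 1.06 and 1.11 in the first pair and by 0.52, 0.57 and 0.60 in the second, so the size of their rise differed between the pairs. They were the 3 highest members in the first pair, whereas in the second Clec7a, at 0.59, came after Fcgr2b. Cybb, Rac2 and Lcp1 were the lowest members in both.

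**Figure D3:**
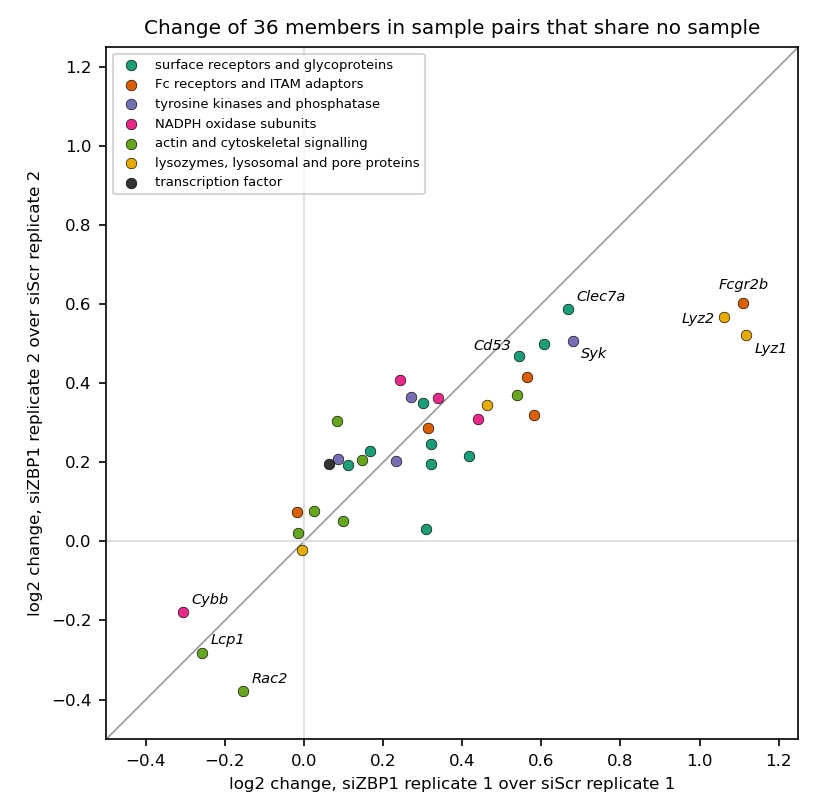
Log2 change of the 36 members tested in 2 pairs of samples that share no sample, replicate 1 over replicate 1 on the horizontal axis and replicate 2 over replicate 2 on the vertical axis, coloured by role, with the line of equal change. Pearson's r over all 36 members was 0.858. Lyz1, Lyz2 and Fcgr2b lie furthest from the line and changed more in the first pair. Others are off the line too, such as Cd14 (0.31 and 0.03) and Aif1 (0.08 and 0.30).

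Members that departed from the common shift were found by subtracting the members' own median level from each sample and fitting all genes again. That level was 0.37 higher in siZBP1 cells on the log2 scale, more than the median change of 0.29, since a shift of the median level need not equal the median of the members' shifts. Against it 3 members, Fcgr2b, Lyz1 and Lyz2, lay above at a limma adjusted p under 0.05, and 8 lay below (Lcp1, Rac2, Cybb, Mpeg1, Coro1a, Fcgr1, Dock2 and Vav1). By the same rule 1.23% of all genes tested lay above and 47.6% below. With the members' mean level as the shift (0.28), 8 members lay above and 8 below, beside 2.85% and 46.9% of all genes. The same counts, beside 3.07% and 49.6%, were obtained with the median of the members' deviations (0.28), an alternative chosen after the difference between the medians had been seen. The 5 members added above were Clec7a, Syk, Msr1, Cd53 and Tyrobp. The 3 above and the 8 below were called in all 3 versions. Of those 8, 5 belonged to the genes of actin and cytoskeletal signalling, 1 to the oxidase, 1 to the Fc receptors and 1 to the pore-forming proteins. Without siZBP1 replicate 1 or 2, where the spread comes from the siScr pair alone, no member was called above or below. At an unadjusted p under 0.05 these fits held 0 and 1 members above, beside 1.01% and 1.07% of all genes, and 3 and 3 below, beside 26.1% and 25.4%. With siScr replicate 2 left out there were 21 below, beside 71.1% of all genes.

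Promoters of the members were compared for GAGGAA, the core letters of the PU.1 site, on both strands, in RefSeq windows from 250 bases before to 50 bases after the start (GRCm38.p6). Of the 28 members with a window in the table, 18 held it (64.3%), beside 31.3% of all 27025 genes with a window and 30.8% of the 9005 that were tested. Members with the letters did not stand out by their change: the median log2 fold change was 0.24 for the 16 tested with the letters and 0.31 for the 10 tested without. The windows below, of 30 bases each around the letters (capitals; TTCCTC is the same core on the other strand), are shown for genes that rose (Clec7a, Syk, Plek and Laptm5), genes that were not called (Vav1 and Fcgr1) and the gene with the letters that was called lower (Cybb). They are given 5′ to 3′ along the gene, for Clec7a at chr6:129472858-129472887 (minus strand), for Syk at chr13:52596861-52596890 (plus), for Plek at chr11:17008762-17008791 (minus), for Laptm5 at chr4:130913266-130913295 (plus), for Vav1 at chr17:57279077-57279106 (plus), for Fcgr1 at chr3:96294007-96294036 (minus) and for Cybb at chrX:9469298-9469327 (minus), where the letters lie after the start.
Clec7a: aaacaggatctaGAGGAAaaaagggaaatt
Syk: tgctgacactttGAGGAAaagccacttccc
Plek: tcagatatctagTTCCTCtttctgactcgt
Laptm5: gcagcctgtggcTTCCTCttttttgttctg
Vav1: acagtcacagaaGAGGAAgtggtgttgtag
Fcgr1: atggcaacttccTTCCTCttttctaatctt
Cybb: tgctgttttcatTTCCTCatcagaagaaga

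The letters stand in windows of genes that rose by 0.63 (Clec7a) and 0.59 (Syk) as well as of genes near 0, such as Vav1 and Fcgr1, and of Cybb, which was called lower (-0.24). Short matches to the siRNAs were counted as well, since an siRNA can lower transcripts with a match to its seed, bases 2 to 8 of its antisense strand, in the 3′ UTR. The letters CAGCCAA, which match the seed of siZBP1-1, occurred in the annotated 3′ UTR of 10 of the 38 members (26.3%), beside 13.2% of the 10868 tested genes with a 3′ UTR of at least 50 bases. All 4 members with a negative change, Cybb, Rac2, Lcp1 and Mpeg1, held them, but so did Lyz1 and Lyz2. Of the 4, only Cybb and Lcp1 were called lower, and Mpeg1 was at -0.01 ± 0.04 SE. The median log2 fold change was 0.26 over the 10 members with the letters and 0.29 over the 26 tested members without. The letters TCCGGGA, for siZBP1-2, occurred in 0 of the 38 members and in 2.7% of those tested genes. Whether either siRNA had a part in the members' changes was not tested.

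Other macrophage and leukocyte genes, on a list also chosen with earlier results of these data known, were looked at next. Bulk RNA does not show whether they are expressed in the same cells as the members. Of 58 such genes in the table, 57 were tested. At an adjusted p under 0.05 limma called 26 higher and 3 lower, beside 13.5% and 14.8% of all genes tested. Over the 57 genes the median change was 0.24 on the log2 scale. When either siZBP1 sample was left out limma called 0 of them in either direction, with 23 higher in both fits and 2 and 3 lower at an unadjusted p under 0.05, and with siScr replicate 1 left out it called 13 higher and 1 lower. Nearly all calls among all genes tested were lost as well when either siZBP1 sample was left out. The shares of all genes that were higher in these fits are given above, beside the members. Itgam, which encodes CD11b, was at 84.1 and 95.3 FPKM in siScr cells and at 114 and 117 FPKM in siZBP1 cells (0.37 ± 0.07 SE, limma adjusted p = 0.0238). Adgre1, an adhesion receptor typical of macrophages, was at 303 and 279 FPKM and at 313 and 320 FPKM, and was not called (0.12 ± 0.05 SE, limma adjusted p = 0.165). The integrin partner of CD11b, Itgb2, was at 107 and 111 FPKM and at 117 and 114 FPKM, and the transcription factor gene Irf8 at 43.0 and 44.4 FPKM and at 48.4 and 48.2 FPKM, with changes of 0.08 ± 0.04 and 0.14 ± 0.04 SE (limma adjusted p = 0.221 and 0.0679).

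The largest rises of that list were in the receptor genes Clec4n, Cd33 and Clec4e. Clec4n, the lectin Dectin-2, was at 7.49 and 6.56 FPKM in siScr cells and at 17.4 and 16.8 FPKM in siZBP1 cells, 2.44-fold higher (1.18 ± 0.08 SE, limma adjusted p = 0.00343). Cd33 was at 13.0 and 22.1 FPKM and at 40.2 and 37.97 FPKM (1.15 ± 0.24 SE, limma adjusted p = 0.0305), and Clec4e, the lectin Mincle, at 1.62 and 2.71 FPKM and at 4.34 and 5.66 FPKM (0.94 ± 0.21 SE, limma adjusted p = 0.0374). The siZBP1 samples exceeded the siScr samples in all 3 genes, and those of siScr were uneven in Cd33 and Clec4e. The genes called lower were Slc11a1, a metal transporter of the phagosome, at 36.4 and 34.0 FPKM against 27.5 and 27.7 FPKM, Arhgap30, at 34.3 and 34.7 FPKM against 29.4 and 28.3 FPKM, and the transcription factor gene Irf5, at 53.9 and 52.0 FPKM against 46.1 and 46.3 FPKM. They fell by 0.34, 0.25 and 0.19 on the log2 scale (limma adjusted p = 0.0149, 0.0219 and 0.0339). With siScr replicate 1 left out, the calls of Clec4e, Slc11a1, Arhgap30 and Irf5 were lost (limma adjusted p = 0.109, 0.0554, 0.0752 and 0.0890), and with siScr replicate 2 left out those of Arhgap30 and Irf5 (limma adjusted p = 0.0690 and 0.0512). Without the variance trend Cd33, Clec4e and Irf5 were not called, and Irf5 was not called with median centring or the replicate block, nor Clec4e without the filter.

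Markers of the stromal cells themselves were lower where the macrophage genes were higher. The summed level of 6 markers that define macrophages (Csf1r, Adgre1, Itgam, Cd68, Ptprc and Spi1) was 1792 and 1803 FPKM in siScr cells and 2139 and 2093 FPKM in siZBP1 cells. These genes are members or on the other list, so the sum repeats values given above. Most of its rise came from Csf1r and Cd68. All 6 had both siZBP1 values above both siScr values, and 3 of them (Csf1r, Itgam and Cd68) were called higher and 0 lower. The sum of 10 mesenchymal stromal markers was 5364 and 4501 FPKM in siScr cells and 3049 and 3093 FPKM in siZBP1 cells. Most of this drop came from Col1a1 alone, whose values are given below. Of the 9 stromal markers tested, 0 were called higher and 5 lower (Pdgfrb, Col1a1, Eng, Cxcl12 and Prrx1, of which Eng was not called with median centring, quantile normalization, a pseudocount of 5, no filter, no variance trend or siScr replicate 1 left out), and 7 of 10 had both siZBP1 values below both siScr values. Of all genes tested, 13.5% were called higher and 14.8% lower. Both siZBP1 values lay above both siScr values in 34.7% of all genes tested and below them in 33.7%. None of the 10 stromal markers was at 0, although Lepr was between 0.414 and 1.28 FPKM and Thy1 between 1.48 and 4.49 FPKM. Cxcl12, the chemokine that retains haematopoietic cells in the marrow, was at 68.4 and 54.6 FPKM in siScr cells and at 8.06 and 7.71 FPKM in siZBP1 cells. Col1a2 was at 2092 and 1806 FPKM and at 1829 and 1811 FPKM and was not called, whereas Col1a1 was at 3066 and 2520 FPKM and at 1128 and 1191 FPKM. When either siZBP1 sample was left out, none of the 5 stromal calls held, and nearly all calls among all genes tested were lost as well. The part of a change in the mix of cells in the members' rise was not tested.

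**Figure D4:**
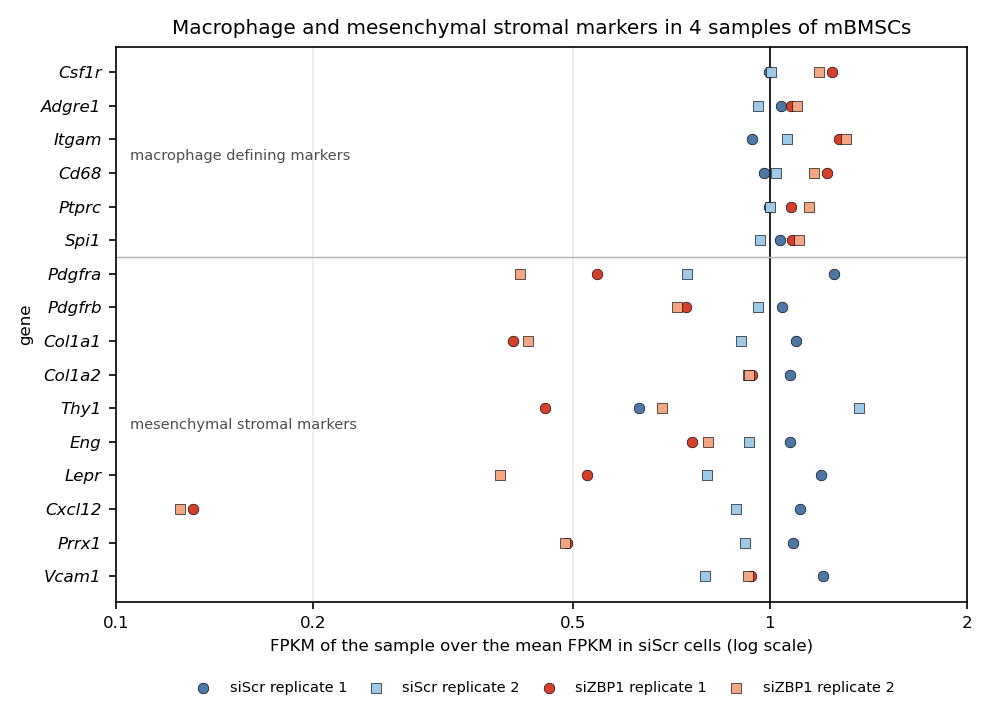
FPKM of each sample over the mean in siScr cells, on a log axis, for 6 macrophage defining and 10 mesenchymal stromal markers. The siZBP1 samples lie to the right of all siScr samples for the 6 macrophage markers and to the left of them for 7 of the 10 stromal markers.

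Other blood cells that share some of these genes left little signal. The 6 B cell, 6 dendritic cell and 3 erythroid markers were each under 1 FPKM in all samples, as were 6 of 7 T cell markers. The exception was Cd4, at 3.66 and 3.68 FPKM in siScr cells and 5.61 and 5.33 FPKM in siZBP1 cells. Of 8 granulocyte markers, 5 were at 0 in all samples and only S100a8 exceeded 1 FPKM, at 4.52 FPKM in siZBP1 replicate 2 alone. The osteoclast protease gene Ctsk, also made by stromal cells, was at 41.5 and 43.1 FPKM in siScr cells and 28.5 and 26.5 FPKM in siZBP1 cells, with 4 of 6 osteoclast markers under 1 FPKM in all samples. Pf4, a platelet chemokine that macrophages can also express, was at 34.4 and 26.5 FPKM and at 41.3 and 40.03 FPKM, with 3 of 5 platelet markers under 1 FPKM. Of the remaining lists, Mcpt8 was the one mast cell and basophil marker over 1 FPKM, between 1.75 and 2.95 FPKM, and the highest endothelial value was 3.08 FPKM, for Kdr.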

How the data were processed

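The authors prepared TruSeq libraries from mRNA. The submitters' processing notes name TopHat, Cufflinks and mm10, whereas the study's methods name TopHat and HTSeq. Annotation and filters are not given in the sources used here. The deposited values are FPKM per gene and sample, with the authors' group means, which equal the replicate means and were not used. Of 24346 rows, 6558 were at 0 in all samples.

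Members and lists were chosen with earlier results of these data known. Limma (version 3.58.1, R 4.3.3, variance trend) was fitted to log2(FPKM + 1) of the 11959 genes with a mean of at least 1 FPKM, 2 against 2 samples, two-sided, adjusted by Benjamini and Hochberg at 0.05, and was tested on simulated data. With 2 samples a group an exact permutation test cannot go below 0.333. Fold changes on this scale understate the change of low genes. No counting error was computed.

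Values per sample are given for members called with a ratio of means over 1.5, called lower or apart from the common shift, for Csf1r, Ptprc, Spi1, Cd68, Lyz1 and Lyz2, for Itgam, Adgre1, Itgb2, Irf8 and for the 3 largest called rises and falls of the other list, and in addition, chosen after values were seen, for Fcgr3, Fcer1g, Cyba, Laptm5, Marco, Fgr and markers. Of 60 genes in the other list, Emr1 and Lilrb4 are not names in the table. Shared windows and 3′ UTRs came from GENCODE M21 (GRCm38), promoters from RefSeq (GRCm38.p6). Alternatives were other pseudocounts (0.1, 5), filters (none, 5 FPKM), quantile normalization, median centring, no variance trend, a replicate block and leaving out each sample. Python 3.11.15 was used with numpy 2.4.6, pandas 2.3.3 and matplotlib 3.10.9.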

Additional observations from a re-analysis of the deposited data

How the results depend on the processing

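The members' median log2 fold change and its SD kept within the spread of replicates in all alternatives run. Counts that moved by over 1.5 times were these. Members lower numbered 1 with median centring or no filter and 0 with quantile normalization or no variance trend, instead of 2. Members below the common shift numbered 4 with no filter or no variance trend and 5 with a pseudocount of 0.1 or quantile normalization, instead of 8, and those above it 8 with the members' mean or, added after seeing the data, their median deviation, instead of 3. Leaving out 1 sample at a time gave 0 to 20 members higher, 0 to 1 lower, 0 to 6 above and 0 to 21 below the common shift, 0 to 25 other macrophage genes higher and 0 to 2 lower, and 22 to 1019 of all genes higher and 23 to 1297 lower. In these fits the spread of a group with 1 sample is taken from the group with 2. The sign turned for Mpeg1 (0.0173 with median centring, 0.142 with quantile normalization) and, without siScr replicate 2, for Coro1a and Fcgr1, which ranged from -0.0133 to 0.0194 and from -0.0404 to 0.0978 when 1 sample was left out. The causes were not tested. Median centring and quantile normalization moved the median of all genes to 0.036 and 0.043.

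Deviations of samples with the same replicate number had r = -0.063 over 11959 genes and r = -0.373 over the 36 members tested. Samples with the same number thus did not deviate in the same direction. With the replicate block, 20 members were higher and 2 lower, 2 lay above and 8 below the common shift. No read numbers were available, so depth could not be weighed per gene.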
